A study of Mus musculus with 28 samples.

Results

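Notch1, Notch2, Rbpj, Hes1, Nrarp, Dtx1 and Myb were followed in leukocytes sorted from mouse tumours. They are 7 of the 17097 genes measured, and 11 probe sets on the array name them. Nrarp and Myb were chosen by their log2 values, which fell with tumour day in B16, and the other members are parts or targets of the Notch pathway. For a gene with several probe sets the one with the highest mean over all 28 arrays stands for it, and the others are given beside it.

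Notch receptors are cut when a ligand on a neighbouring cell binds them, and the freed intracellular part joins the DNA-binding protein RBPJ in the nucleus and switches on target genes. Nrarp and Hes1 are target genes in many tissues: the Nrarp protein feeds back to shorten the life of the Notch intracellular part, and HES1 is a transcriptional repressor. In the blood system Notch1 drives the choice of the T cell lineage, Notch2 acts in marginal zone B cells and some dendritic cells, and Myb encodes a transcription factor of blood progenitors and developing lymphocytes.

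The samples were CD45+ cells, that is blood-derived cells, from B16.F10 melanomas and MC38 colon carcinomas. The deleted hosts were Nrp1L/LFoxp3Cre-YFP mice, in which the floxed gene of the co-receptor neuropilin 1 is removed by a Cre recombinase expressed from Foxp3, the gene that marks regulatory T cells. The control hosts were Foxp3Cre-YFP mice, so every host carried the Cre and YFP alleles. In each tumour both hosts were sampled at 3 stages: an early stage and days 12 and 18 in B16, and days 6, 12 and 18 in MC38. The sample titles and source names disagree on the early B16 day, 8 against 6, so it is called early here. B16 day 18 and MC38 day 12 had 3 arrays of each genotype, and the other 4 settings had 2 of each. Whether replicates came from different mice is not stated, so p-values measure only the spread between arrays, which may be technical.

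The values are log2 intensities, and a difference of 1 is 2-fold. By the shape of their value distributions the arrays fell into 3 sets: B16 day 18 with MC38 day 12 (12 arrays), MC38 days 6 and 18 (8 arrays), and B16 early with day 12 (8 arrays). Genotypes were compared within a set, and so were MC38 days 6 and 18. Levels in B16 day 18 against earlier B16 days, in MC38 day 12 against the other MC38 days, and in B16 against MC38 cannot be told apart from the set. Nrp1 itself was lower in deleted hosts by a log2 difference of -0.84 ± 0.09 (SE, limma adjusted p = 1.65e-07). Its main probe set was lower on every deleted array than on every control array in all 6 settings. The other 2 Nrp1 probe sets gave -0.86 and -0.82, and both overlapped at MC38 day 6, where they read 8.49 and 8.5 on deleted replicate 1 against 8.46 and 8.40 on control replicate 1. The Nrp1 effect was larger in B16 than in MC38, by -0.59 ± 0.17 (adjusted p = 0.0231). On single MC38 days it did not pass (adjusted p = 0.121, 0.308 and 0.103 at days 6, 12 and 18). The samples mix many cell types, and the part of the cell mix in the Nrp1 difference was not tested. The leukocyte marker Ptprc, the gene for CD45, lay between 11.51 and 12.90 on all arrays. Ptprc itself was higher in deleted hosts by 0.25 ± 0.03 (adjusted p = 5.1e-06), with every deleted array above every control array in 5 of the 6 settings, and its part in the genotype differences was not tested. One array, MC38 day 18 deleted replicate 1, had a lower value of the Y-linked Eif2s3y, 6.47 against 8.74 on its replicate, while the Y-linked Kdm5d (5.11 against 5.50) and Uty (4.91 against 4.49) were not set apart, and MC38 results are given without it where that ends a call.

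The promoters of Nrarp and Myb are shown because these 2 genes were picked for falling with tumour day in B16. Each runs from 250 bases before the transcription start to 50 after it and is taken from RefSeq on GRCm38.p6. The Nrarp promoter is chr2:25180508-25180807 on the plus strand, and the Myb promoter is chr10:21160935-21161234 on the minus strand, written in the gene's own direction. Capitals mark matches to AACNG, the core of the MYB motif, on either strand.
Nrarp: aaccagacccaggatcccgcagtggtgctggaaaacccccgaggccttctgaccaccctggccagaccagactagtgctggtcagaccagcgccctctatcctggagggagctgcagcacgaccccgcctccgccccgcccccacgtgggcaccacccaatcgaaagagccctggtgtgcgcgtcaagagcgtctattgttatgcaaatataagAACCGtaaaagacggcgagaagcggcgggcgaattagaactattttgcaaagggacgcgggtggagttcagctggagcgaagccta
Myb: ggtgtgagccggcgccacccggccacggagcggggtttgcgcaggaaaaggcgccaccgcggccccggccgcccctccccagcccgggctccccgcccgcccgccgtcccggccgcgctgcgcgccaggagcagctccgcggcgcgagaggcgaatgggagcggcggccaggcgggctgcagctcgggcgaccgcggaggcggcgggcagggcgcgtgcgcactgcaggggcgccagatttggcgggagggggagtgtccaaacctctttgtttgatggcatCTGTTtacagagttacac
Each promoter held 1 match to AACNG, as 80.3% of all 32851 promoters of this length hold at least 1. Neither held TGGGAA, the core of the RBPJ motif, on either strand, which 25.6% of promoters hold, nor GTGGGAA, which contains it and which 6.38% hold. Of the 6 members with a promoter in the table, Rbpj was the only one with TGGGAA, which was found 2 times in its first promoter, and Dtx1 held AACNG 2 times. A match is only a match of letters, and RBPJ sites elsewhere were not searched. Nrarp (chromosome 2, 25180758 to 25183339) and Notch1 (chromosome 2, 26457902 to 26503822) both lie on chromosome 2, while Myb is on chromosome 10, Hes1 on 16, Notch2 on 3, and Rbpj and Dtx1 on 5.

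Across the 12 groups the members differed widely in how much they varied. Notch1 and Rbpj were bright on every array, with Notch1 between 7.65 and 10.27 and Rbpj between 8.71 and 9.28. Nrarp spanned 3.93 to 9.17 and Myb spanned 2.98 to 8.96, the widest ranges of the 7. Hes1 spanned 3.28 to 7.08 and Dtx1 spanned 3.43 to 5.87. Notch2 stayed between 2.95 and 3.84, and 27 of 28 arrays were at or below 3.64, the median of all values on the arrays, so its level is not told apart from background here. Its single probe set gave nothing more to compare.

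**Figure D1:**
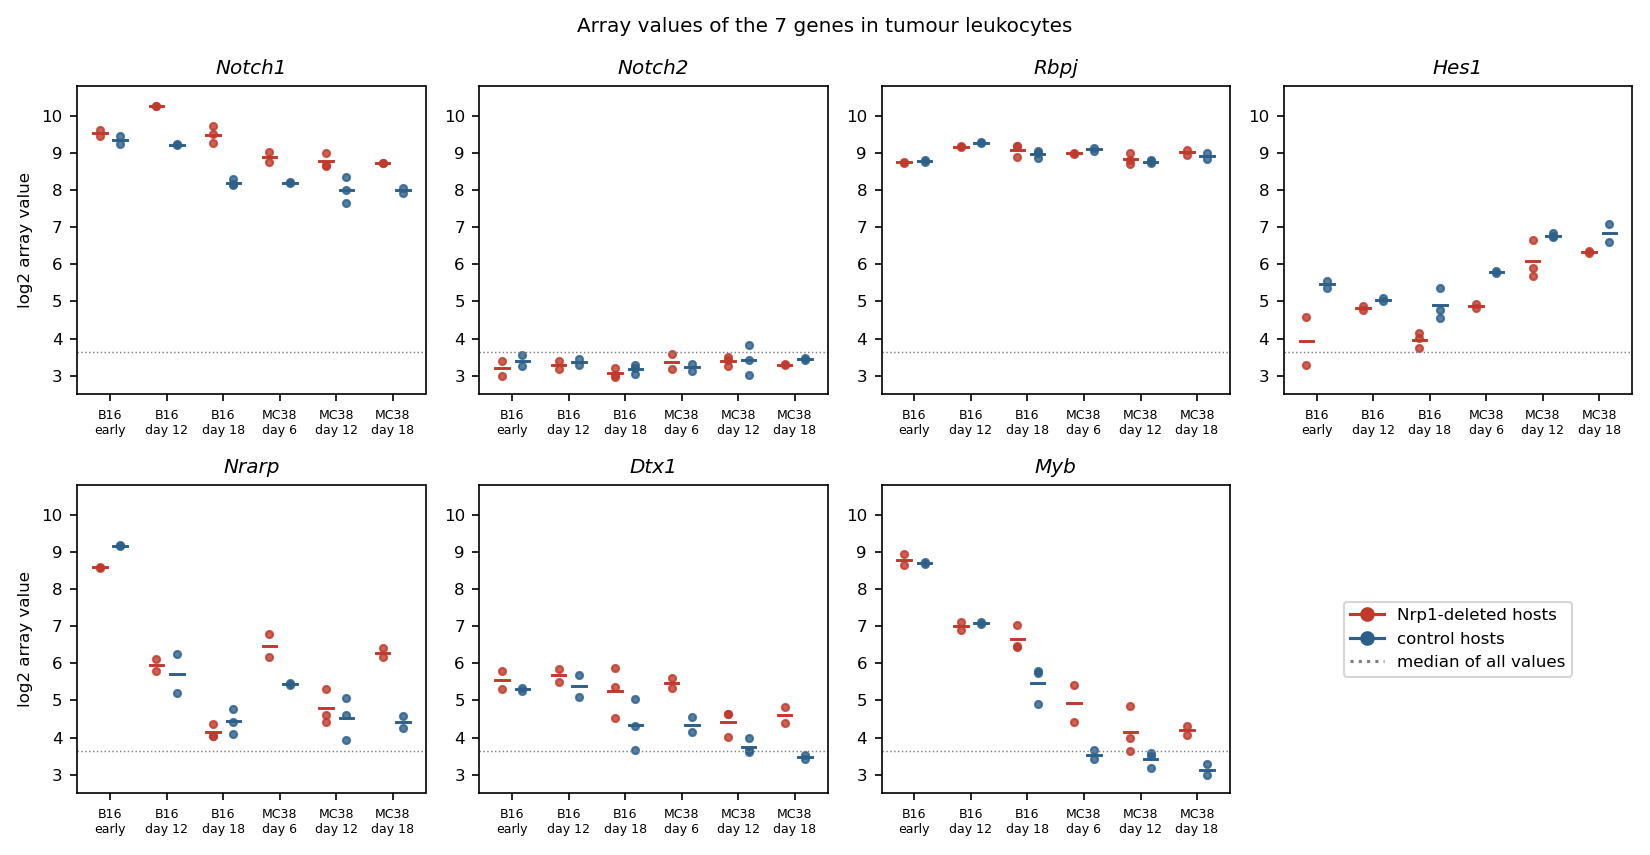
Log2 value of each of the 7 genes (main probe set) on each of the 28 arrays, by tumour and stage; points are arrays, bars are group means, red is deleted hosts and blue is control hosts. Nrarp and Myb were highest in early B16 tumours, Hes1 was lower in deleted hosts in every setting, and Notch2 stayed near the dotted median of all values, 3.64.

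Nrarp and Myb fell with B16 stage in both genotypes, which is the pattern they were picked for and is given as a description with no test. Nrarp read 8.58 and 8.60 in early deleted hosts, 6.13 and 5.80 at day 12, and 4.03, 4.04 and 4.36 at day 18. In control hosts it read 9.17 and 9.16 early, 5.19 and 6.25 at day 12, and 4.77, 4.11 and 4.42 at day 18. No day overlapped the day before it in either genotype. The drop between early and day 12, which lies within 1 set of arrays, was -2.62 in deleted hosts (6.17-fold) and -3.45 in control hosts (10.9-fold). By size of fall Nrarp ranked 8th in deleted hosts and ranked 1st in control hosts among the 17097 genes. Its second probe set, which is dimmer, read 6.38 and 6.29 early and 4.55 and 4.17 at day 12 in deleted hosts, against 6.95 and 6.88 early and 3.77 and 4.59 at day 12 in control hosts.

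Myb read 8.63 and 8.96 in early deleted hosts, 7.11 and 6.90 at day 12, and 6.47, 7.03 and 6.43 at day 18. In control hosts it read 8.71 and 8.67 early, 7.07 and 7.10 at day 12, and 5.78, 5.74 and 4.91 at day 18. Day 12 lay below the early stage on every array, while in deleted hosts days 12 and 18 overlapped. The drop between early and day 12 was -1.79 in deleted hosts (3.46-fold) and -1.61 in control hosts (3.05-fold). The further fall to day 18 in deleted hosts, -0.36, was 0.00 after cyclic loess normalization, so it rests on how the 2 sets of arrays were scaled. In control hosts the fall between days 12 and 18 was -1.61 as deposited and -1.28 after loess.

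Between the early stage and day 12 none of the other 5 members fell in both genotypes. Between early and day 12 Rbpj differed by 0.43 in deleted hosts and 0.51 in control hosts, both upward. Notch1 differed by 0.73 in deleted hosts and -0.13 in control hosts, and Hes1 by 0.90 and -0.42. Dtx1 differed by 0.13 in deleted hosts and 0.10 in control hosts, within the spread of its arrays. Notch2 differed by 0.09 in deleted hosts and -0.04 in control hosts, near background. Early deleted Hes1 rests on 2 arrays that read 4.57 and 3.28, so its day difference there depends on which is taken.

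By day 18, in the other set of arrays, several of these genes stood below the early stage in control hosts. The difference between day 18 and early for Notch1 was -0.04 in deleted hosts and -1.15 in control hosts, where its means were 9.35 early, 9.22 at day 12 and 8.20 at day 18. For Dtx1 it was -0.29 in deleted hosts and -0.96 in control hosts, and for Hes1 it was 0.05 in deleted hosts and -0.57 in control hosts. After loess the control values became -0.68 for Notch1, -0.66 for Dtx1 and -0.25 for Hes1, and the deleted values 0.42, -0.05 and 0.31. Rbpj stood above early by 0.34 in deleted hosts and 0.20 in control hosts, and by 0.80 and 0.69 after loess. Notch2 differed by -0.13 in deleted hosts and -0.22 in control hosts, and by 0.16 and 0.08 after loess. Nrarp and Myb, which fell by day 12 in both genotypes, were picked for falling in B16, so their contrast with the other members follows in part from the choice. Notch1, Dtx1 and Hes1 ended lower in control hosts by an amount that depends on the scaling. The size of the Rbpj rise, and the sign for Notch1 in deleted hosts and for Notch2 in both genotypes, depend on the scaling too.

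**Figure D2:**
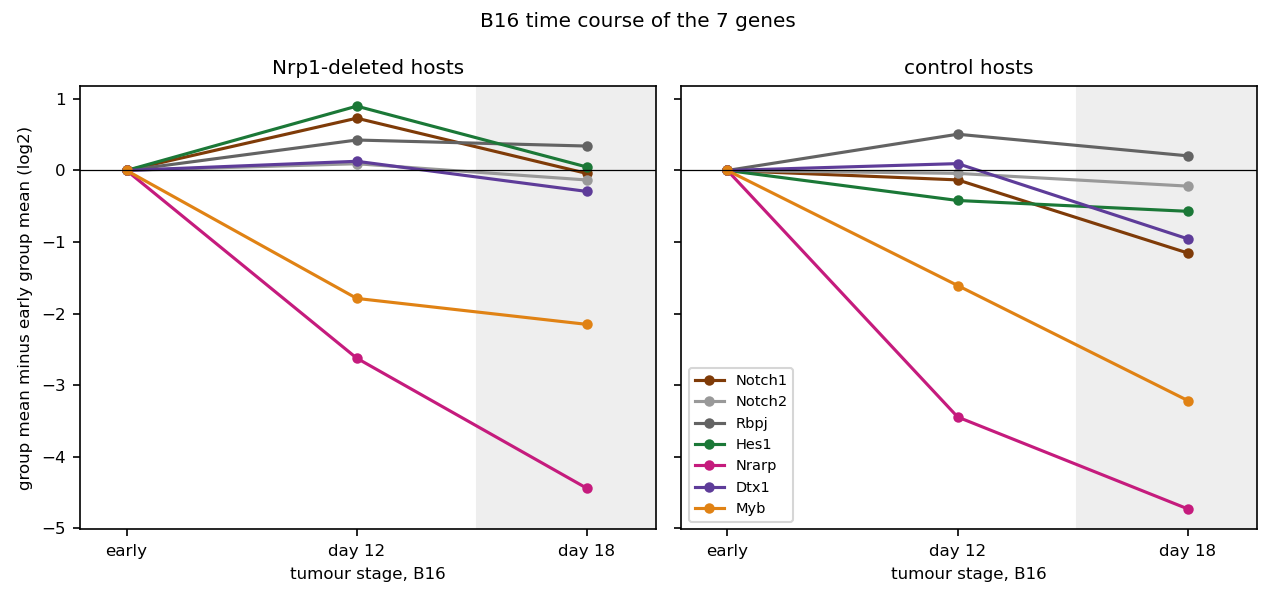
Difference of each B16 group mean from the early group mean (log2) for the 7 genes, by stage, in deleted hosts (left) and control hosts (right); the shaded part marks day 18, which belongs to another set of arrays. Nrarp and Myb drop by day 12 in both panels, while Rbpj lies above its early mean.

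Of 46 other measured Notch pathway genes, 4 were higher and 7 were lower at B16 day 12 than at the early stage over both genotypes, with a median difference of 0.05. These are 23.9% of them, and 23.2% of all genes were called in this comparison (limma adjusted p under 0.05), so the share is near the background. Among other Notch target genes, Hey1, a repressor related to HES1, fell by 0.87 ± 0.12 (SE, adjusted p = 9.37e-06) and Il2ra, the high-affinity interleukin 2 receptor chain, fell by 1.15 ± 0.31 (adjusted p = 0.00831). Maml1, the coactivator that docks on RBPJ and the Notch intracellular part, fell by 0.44 ± 0.10 (adjusted p = 0.002). Itch, a ubiquitin ligase that acts on Notch, was higher by 0.57 ± 0.09 (adjusted p = 5.46e-05). Mybl2, the Myb relative of dividing cells, fell by 0.69 ± 0.17 (adjusted p = 0.00354), and 9 of 12 proliferation genes were lower (median -0.51). The 13 measured T cell markers had a median difference of 0.05 with 1 called, while 4 of 12 macrophage markers were higher (median 0.55) and 5 of 10 melanocytic genes were lower (median -0.74). For the last 2 lists these averages join opposite directions. The macrophage list mean went from 8.01 to 9.97 in control hosts and from 7.09 to 6.41 in deleted hosts. The melanocytic list mean went from 6.77 to 6.96 in control hosts and from 6.97 to 5.35 in deleted hosts. The part of these cell types in the falls of Nrarp and Myb was not tested. In RNA of mixed cells, fewer cells that express a gene and less of its RNA per cell cannot be told apart.

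The genotype comparison was not used to pick the members. Averaged over the 6 settings, 5 of the 7 members passed the test, against 28.8% of all genes: Notch1, Nrarp, Dtx1 and Myb were higher in deleted hosts and Hes1 was lower. In B16, 2 of 7 passed (22.6% of all genes), and in MC38 5 of 7 passed (19.3%). The median difference over all genes was -0.03, 0.01 and -0.06 in these 3 comparisons. By setting, the members called were 1 in early B16 (0.445% of all genes), 1 at B16 day 12 (17.0%), 4 at B16 day 18 (18.8%), 2 at MC38 day 6 (2.97%), 1 at MC38 day 12 (8.59%) and 2 at MC38 day 18 (5.36%).

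**Figure D3:**
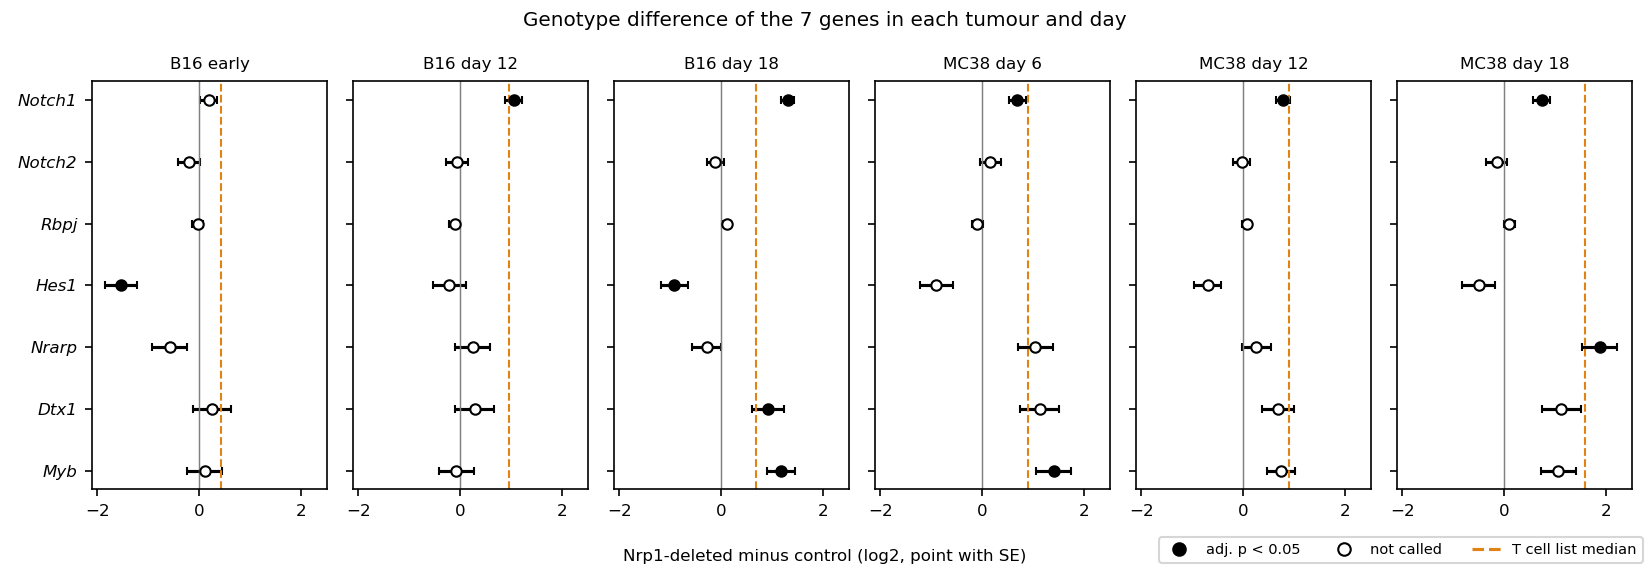
Difference between deleted and control hosts (log2, point with SE from limma) of the 7 genes in each tumour and stage; filled points passed an adjusted p of 0.05, and the dashed line is the median difference of 13 T cell markers. Notch1 passed in 5 of 6 settings, Hes1 lay to the left of 0 in all 6, and Rbpj lay near 0.

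Notch1, the receptor of T cell commitment, was higher in deleted hosts in both tumours. In B16 it read 9.44 and 9.63 in deleted hosts against 9.46 and 9.25 in control hosts early, 10.26 and 10.27 in deleted hosts against 9.23 and 9.21 in control hosts at day 12, and 9.71, 9.50 and 9.27 in deleted hosts against 8.30, 8.15 and 8.14 in control hosts at day 18. In MC38 it read 9.02 and 8.74 in deleted hosts against 8.21 and 8.19 in control hosts at day 6, 8.68, 8.65 and 8.98 in deleted hosts against 7.99, 8.35 and 7.65 in control hosts at day 12, and 8.73 and 8.73 in deleted hosts against 7.92 and 8.07 in control hosts at day 18. Every deleted array lay above every control array in 5 of the 6 settings, and early B16 overlapped. The difference averaged 0.79 ± 0.06 (SE, 1.72-fold, limma adjusted p = 1.05e-08), with 0.84 ± 0.09 in B16 (adjusted p = 1.86e-07) and 0.73 ± 0.09 in MC38 (adjusted p = 4.51e-06). The second Notch1 probe set gave 0.66 ± 0.07. The B16 and MC38 effects differed by 0.11 (95% interval -0.15 to 0.37, adjusted p = 0.631).

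By setting the Notch1 difference was 0.18 in early B16 (adjusted p = 0.834), 1.05 at B16 day 12, 1.30 at B16 day 18, 0.68 at MC38 day 6, 0.77 at MC38 day 12 and 0.73 at MC38 day 18, and all but the first passed. The calls of MC38 days 6 and 18 need nearly every array. At day 6 Notch1 missed the threshold without control replicate 1 (0.69), control replicate 2 (0.67) or deleted replicate 1 (0.54), and in the fit to the compared groups only (adjusted p = 0.101) or with a replicate block (adjusted p = 0.0764). At day 18 it missed without control replicate 1 (0.66), deleted replicate 1 (0.73) or deleted replicate 2 (0.74). Between the early stage and day 12 of B16 the Notch1 genotype effect grew by 0.86 ± 0.23 (adjusted p = 0.0253), the only member called in that test, against 6.29% of all genes. That call is of the main probe set alone: the second one gave 0.29 (adjusted p = 0.658), and their mean gave 0.57 (adjusted p = 0.122). The call was also lost with a replicate block (adjusted p = 0.0629) and without any one of 6 arrays: each of the 4 day 12 arrays (0.85 to 0.87), early control replicate 1 (0.76) and early deleted replicate 1 (0.77). Hes1 had a difference of 1.32 ± 0.45 in this test (adjusted p = 0.0889), which passed with array weights (adjusted p = 0.0402) and without early deleted replicate 1 (1.96, adjusted p = 0.00703), and was 0.67 without early deleted replicate 2. In the same test all 12 macrophage markers (median -2.56) and 8 of 10 melanocytic genes (median -2.11) were lower, and none of 13 T cell markers was called (median 0.63). Their part in the Notch1 result was not tested.

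Rbpj, the nuclear partner of all Notch receptors, showed no genotype difference that passed. Its group means lay between 8.74 and 9.28, and the averaged difference was 0.00, with a 95% interval of -0.08 to 0.09 and adjusted p = 0.956. Its main probe set was not called in any genotype or MC38 day comparison, and its second probe set gave 0.04 in the average (adjusted p = 0.725). Notch2 was not called either (-0.07, adjusted p = 0.602), at a level near background.

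Hes1, the repressor that Notch induces in many cells, went opposite to Notch1. In B16 it read 4.57 and 3.28 in deleted hosts against 5.56 and 5.37 in control hosts early, 4.89 and 4.76 in deleted hosts against 5.0 and 5.09 in control hosts at day 12, and 3.74, 4.03 and 4.15 in deleted hosts against 4.76, 4.56 and 5.36 in control hosts at day 18. In MC38 it read 4.83 and 4.93 in deleted hosts against 5.81 and 5.75 in control hosts at day 6, 5.90, 6.64 and 5.69 in deleted hosts against 6.76, 6.74 and 6.83 in control hosts at day 12, and 6.30 and 6.37 in deleted hosts against 7.08 and 6.6 in control hosts at day 18. Every deleted array lay below every control array in all 6 settings. The averaged difference was -0.80 ± 0.12 (SE, 1.74-fold lower, adjusted p = 2.42e-05), with -0.89 ± 0.17 in B16 (adjusted p = 0.000439) and -0.70 ± 0.17 in MC38 (adjusted p = 0.00568). The B16 and MC38 effects differed by -0.19 (95% interval -0.70 to 0.32, adjusted p = 0.682). The single Hes1 probe set allows no second reading.

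In single settings Hes1 passed in early B16 (-1.54, adjusted p = 0.035) and at B16 day 18 (-0.92, adjusted p = 0.0143). The early call needs deleted replicate 2, the array at 3.28: without it the difference was -0.89 and did not pass, nor did it without control replicate 1 (-1.44) or control replicate 2 (-1.63), in the compared groups only (adjusted p = 0.166) or without an intensity trend (adjusted p = 0.052). The day 18 call was lost without control replicate 3 (-0.69) or deleted replicate 1 (-0.80). At MC38 day 12 Hes1 did not pass (-0.70, adjusted p = 0.102), but it passed without deleted replicate 2 (-0.98) and when early B16 deleted replicate 1 or replicate 2 was left out of the fit (-0.70 in both).

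Nrarp, the feedback inhibitor, had a genotype difference that varied with tumour and day. In MC38 it read 6.17 and 6.78 in deleted hosts against 5.46 and 5.42 in control hosts at day 6, 4.62, 4.42 and 5.32 in deleted hosts against 4.60, 5.07 and 3.93 in control hosts at day 12, and 6.16 and 6.40 in deleted hosts against 4.25 and 4.58 in control hosts at day 18. The genotypes separated at days 6 and 18 and overlapped at day 12, and the day 6 difference of 1.04 did not pass (adjusted p = 0.105). In B16, by the array values given above, deleted hosts lay below control hosts early and overlapped them at days 12 and 18. The early B16 difference of -0.58 did not pass (adjusted p = 0.672). At day 12 the difference was 0.25 in both tumours and did not pass in either (adjusted p = 0.744 in B16 and 0.643 in MC38). Averaged over days it was -0.21 ± 0.19 in B16 (SE, adjusted p = 0.51) and 1.05 ± 0.19 in MC38 (2.08-fold, adjusted p = 0.00028). The part of stage and of the set of arrays in these effects was not tested. These effects differed by -1.26 ± 0.26 (adjusted p = 0.00186), B16 minus MC38, and Nrarp was the only one of the 7 members called in that test, against 14.0% of all genes. The second Nrarp probe set gave -0.79 ± 0.25 for the same difference (adjusted p = 0.0373). At MC38 day 18 the main probe set rose 3.64-fold in deleted hosts (1.87 ± 0.34, adjusted p = 0.00201), while the second gave 0.80 (adjusted p = 0.181). The average over all 6 settings, 0.42 ± 0.13 (adjusted p = 0.0167), joins an MC38 effect that passed with a B16 effect that did not. The average did not pass as a mean of the probe sets (0.31, adjusted p = 0.0609) or without B16 day 12 control replicate 1 (0.33).

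Dtx1, which encodes the ubiquitin ligase Deltex 1, a Notch target and regulator in lymphocytes, was higher in deleted hosts. In B16 it read 5.31 and 5.78 in deleted hosts against 5.25 and 5.34 in control hosts early, 5.50 and 5.84 in deleted hosts against 5.10 and 5.69 in control hosts at day 12, and 5.87, 5.37 and 4.52 in deleted hosts against 5.05, 3.66 and 4.31 in control hosts at day 18. In MC38 it read 5.35 and 5.60 in deleted hosts against 4.56 and 4.15 in control hosts at day 6, 4.64, 4.03 and 4.63 in deleted hosts against 3.66, 3.62 and 3.98 in control hosts at day 12, and 4.38 and 4.83 in deleted hosts against 3.43 and 3.54 in control hosts at day 18. The genotypes separated on all 3 MC38 days and overlapped on all 3 B16 days. How often all genes separate in this way was not counted. No single MC38 day passed (adjusted p = 0.117, 0.19 and 0.0899 at days 6, 12 and 18). Days 6 and 18 did pass without the B16 day 18 arrays (adjusted p = 0.0245 and 0.0164). The difference was 0.73 ± 0.15 on average (SE, adjusted p = 0.000442), 0.48 ± 0.21 in B16 (adjusted p = 0.105) and 0.97 ± 0.21 in MC38 (adjusted p = 0.00156). The B16 and MC38 effects did not differ past the threshold (-0.49, 95% interval -1.09 to 0.11, adjusted p = 0.301).

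Several control values of Dtx1 in MC38 lie near the median of all values, and its second probe set, with a mean of 3.19, made no call. With both probe sets averaged the difference was 0.39 overall and 0.45 in MC38, and both still passed. The B16 value passed with array weights (0.52, adjusted p = 0.0387), with a replicate block (adjusted p = 0.0491) and without B16 day 18 control replicate 1 (0.60) or deleted replicate 3 (0.60). At B16 day 18 the Dtx1 difference was 0.91 (adjusted p = 0.0409). That call was lost with the mean of the probe sets (0.53), after loess (0.83), in the compared groups only (adjusted p = 0.193), and without control replicate 2 (0.57), control replicate 3 (0.89), deleted replicate 1 (0.60) or deleted replicate 2 (0.85).

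Myb was also higher in deleted hosts, at B16 day 18 and in MC38. In MC38 it read 4.43 and 5.43 in deleted hosts against 3.42 and 3.66 in control hosts at day 6, 3.64, 3.99 and 4.85 in deleted hosts against 3.50, 3.58 and 3.17 in control hosts at day 12, and 4.32 and 4.07 in deleted hosts against 2.98 and 3.29 in control hosts at day 18. The genotypes separated on all 3 days, but 6 of the 7 control arrays lie below the median of all values, so the MC38 differences set a dim signal against background. Days 12 and 18 did not pass singly (adjusted p = 0.104 and 0.0727), though day 18 did in the compared groups only (adjusted p = 0.009). The MC38 difference was 1.06 ± 0.19 (SE, adjusted p = 0.000246), and the average over all settings was 0.73 ± 0.13 (adjusted p = 0.000134). In B16 the genotypes overlapped early and at day 12 and separated at day 18, where Myb was higher by 1.17 ± 0.28 (2.25-fold, adjusted p = 0.00396). The B16 average was 0.40 ± 0.19 (adjusted p = 0.142), and without the day 18 arrays it was 0.01.

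The Myb effects in B16 and MC38 differed by -0.67 (95% interval -1.21 to -0.12, adjusted p = 0.0974). That difference passed without the B16 day 18 arrays (-1.05, adjusted p = 0.0176), without B16 day 18 control replicate 3 (-0.76) and without MC38 day 6 deleted replicate 1 (-0.83). At MC38 day 6 Myb passed (1.39, adjusted p = 0.0279), but not in the compared groups only (adjusted p = 0.123) or without control replicate 1 (1.27), control replicate 2 (1.51) or deleted replicate 2 (0.90).

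The MC38 tumours also allow days 6 and 18 to be compared within 1 set of arrays, a contrast that was not used to pick the members. Over both genotypes 2 of the 7 members passed, against 12.8% of all genes: Hes1 was higher at day 18 and Dtx1 was lower. Hes1 was higher by 1.25 ± 0.23 (SE, 2.39-fold, adjusted p = 0.000577), and on every array of day 18 it lay above every array of day 6 of the same genotype. The difference was 1.45 in deleted hosts (adjusted p = 0.0155) and 1.06 in control hosts (adjusted p = 0.0395). Within a genotype Hes1 was the only member called, where 1.94% of all genes passed in deleted hosts and 8.94% in control hosts. These within-genotype calls rest on 4 arrays each: in deleted hosts Hes1 missed without day 6 replicate 2 (1.5) or day 18 replicate 1 (1.49) or 2 (1.42), and in control hosts without any one array (0.81 to 1.30). Between these days 7 of 12 proliferation genes (median 0.58) and 2 of 12 macrophage markers (median 0.46) were higher and 2 of 13 T cell markers were lower (median -0.38), and their part in the Hes1 and Dtx1 differences was not tested.

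Dtx1 was lower at MC38 day 18 by -0.87 ± 0.27 (adjusted p = 0.0335). It missed the threshold with the mean of its probe sets (-0.34, adjusted p = 0.234) and without any one of 5 arrays: day 6 control replicate 1 (-0.76), day 6 deleted replicate 2 (-0.80), day 18 control replicate 1 (-0.84), day 18 control replicate 2 (-0.90) and day 18 deleted replicate 1 (-0.76). Nrarp and Myb, picked for falling in B16, had differences of -0.61 ± 0.24 (adjusted p = 0.107) and -0.57 ± 0.24 (adjusted p = 0.143) in MC38, with 95% intervals of -1.11 to -0.11 and -1.06 to -0.07. Nrarp passed in the fit to the compared groups only (adjusted p = 0.0383), and Myb passed without day 6 deleted replicate 1 (-0.81, adjusted p = 0.0261). In control hosts alone the Nrarp difference was -1.02 (adjusted p = 0.0649), and in deleted hosts it was -0.20 (adjusted p = 0.902).

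The control value of Nrarp lies close to the threshold and passed in 8 alternatives, with adjusted p between 0.00775 and 0.0471. Notch1 did not pass on its main probe set (-0.18, adjusted p = 0.397) but did on the second (-0.46, adjusted p = 0.014) and on the mean of both (-0.32, adjusted p = 0.0495). For none of the 7 members did a change of genotype effect between MC38 days 6 and 18 pass by limma. There were 0 called, 0 at an unadjusted p under 0.05 and a lowest adjusted p of 0.858, and 0.0819% of all genes were called. The intervals were wide, so changes are not excluded: 0.83 for Nrarp (95% interval -0.17 to 1.83) and -0.003 for Dtx1 (-1.11 to 1.11).

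**Figure D4:**
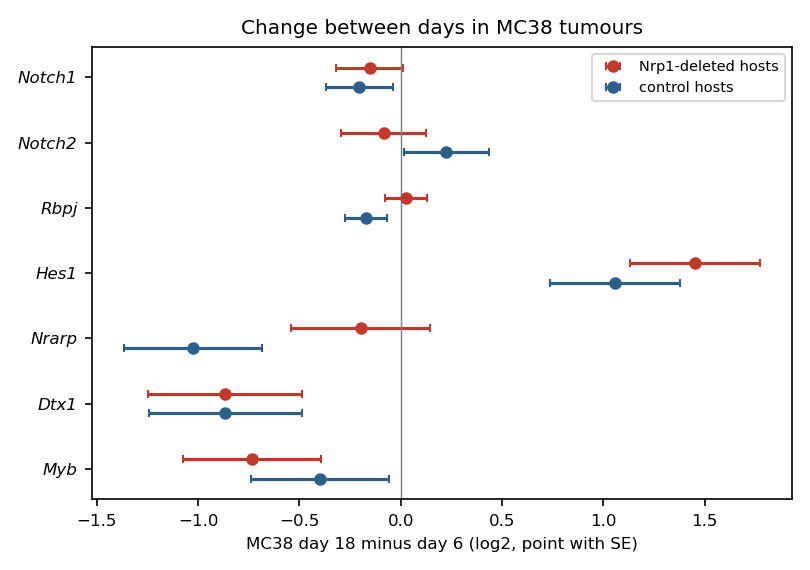
Difference between MC38 days 18 and 6 (log2, point with SE from limma) of the 7 genes, in deleted hosts (red, upper) and control hosts (blue, lower). Hes1 lies to the right of 0 in both, at 1.45 and 1.06, and Dtx1 and Myb lie to the left.

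The rest of the pathway moved in both directions. Of the 46 other measured Notch genes, 8 were higher and 8 were lower in deleted hosts over all settings (34.8% called and a median of -0.03, against 28.8% of all genes). Among processing enzymes Lfng, the sugar transferase that tunes which ligand Notch1 answers to, was higher by 0.45 ± 0.07 (adjusted p = 1.48e-05). Among cofactors the histone acetyltransferase gene Crebbp was higher by 0.45 ± 0.05 (adjusted p = 3.54e-07). Fbxw7, whose product marks the Notch intracellular part for destruction, was higher by 0.41 ± 0.05 (adjusted p = 6.34e-07), and Dtx4, a relative of Dtx1, was lower by -0.50 ± 0.11 (adjusted p = 0.00116).

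Among ligands, Dll4 did not exceed 3.42 and Dll3 did not exceed 3.82 on any array, Dll1 reached 4.51, and Jag1 reached 6.11. Jag1 was lower in deleted hosts by -0.34 ± 0.11 (adjusted p = 0.0219). Among 11 measured other target genes, Gata3, a T cell transcription factor, was higher by 1.01 ± 0.15 (adjusted p = 1.32e-05), while the cyclin gene Ccnd1 (-0.89), the cell cycle inhibitor gene Cdkn1a (-0.57) and Myc (-0.21) were lower. Of the 16 progenitor genes that Myb is often seen with, 3 were higher and 5 lower, with Cd34 at -0.99 and Lmo2 at -0.92. Between MC38 days 6 and 18, 8 of the 46 Notch genes were higher and 9 were lower (median -0.04), so 37.0% were called, against 12.8% of all genes. There Notch4, a receptor of blood vessels, was higher by 0.93 ± 0.15 (adjusted p = 0.000239), and the sheddase gene Adam17 by 0.53 ± 0.08 (adjusted p = 4.65e-05), while Fbxw7 was lower by -0.63 ± 0.09 (adjusted p = 2.98e-05) and Lfng by -0.74 ± 0.12 (adjusted p = 0.000258). The mean of 11 endothelial genes, Notch4 among them, went down, from 4.13 to 3.96 in control hosts and from 4.28 to 4.10 in deleted hosts.

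Markers of cell types moved with genotype as well. All 13 measured T cell markers were higher in deleted hosts on average (median 0.86), with 8 of 13 in B16 (median 0.71) and 12 of 13 in MC38 (median 1.12), and 9 of 9 natural killer cell markers were higher (median 0.92). The mean level of the T cell list was 7.53 to 10.65 on deleted arrays and 6.15 to 9.90 on control arrays. All 12 macrophage markers were lower in B16 (median -1.95) and none was called in MC38 (median -0.22). All 10 melanocytic genes were lower in B16 (median -1.67), and none was called in MC38 (median -0.01). Mast cell and basophil genes were higher in B16 in 6 of 8 (median 1.35) and in none of 8 in MC38 (median 0.16). Type 1 dendritic cell genes were lower in B16 in 6 of 7 (median -1.71), and in MC38 1 was higher and 2 were lower (median -0.37). Fibroblast genes were lower in 4 of 11 in B16 (median -0.13) and in 5 of 11 in MC38 (median -0.30), where the list mean was 3.88 to 4.61 on deleted arrays and 5.0 to 5.44 on control arrays. The melanocytic list mean on B16 day 18 arrays was 5.65 to 6.53 in deleted hosts and 9.14 to 9.83 in control hosts. The part of these cell types in the differences of Notch1, Nrarp, Dtx1, Myb and Hes1 was not tested.

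Over the 12 group means, centred within each set of arrays, the correlation with the T cell list mean was 0.77 for Notch1, 0.83 for Dtx1, 0.79 for Myb and -0.86 for Hes1, against 0.13 for Nrarp and 0.37 for Rbpj. The T cell list was not alone in this: the natural killer list reached 0.88 for Notch1, 0.89 for Dtx1, 0.74 for Myb and -0.76 for Hes1. The fibroblast list reached -0.81 for Notch1, -0.89 for Dtx1, -0.80 for Myb and 0.78 for Hes1, and the mast cell and basophil list reached 0.88 for Notch1. These are descriptions over 12 points that share arrays, scaling and genotype. The set of B16 day 18 with MC38 day 12 holds both tumours, so the difference between tumours stays in these values. Between early and day 12 of B16, Myb means went from 8.79 to 7.01 in deleted hosts and from 8.69 to 7.08 in control hosts. The T cell list means went from 10.38 to 10.62 and from 9.83 to 9.64. Among members, Notch1 and Dtx1 went together (0.81) and Hes1 ran opposite to Dtx1 (-0.81) and Myb (-0.79). Nrarp and Myb reached 0.54, or 0.70 uncentred, over points that include the B16 fall both were picked for. That fall also enters the 0.13 of Nrarp with the T cell list. In MC38 at days 6 and 18, Nrarp means were 6.48 and 6.28 in deleted hosts and 5.44 and 4.41 in control hosts. The T cell list means there were 8.44 and 8.36, and 7.56 and 6.87. At B16 day 18 Nrarp was lower in deleted hosts (4.14 against 4.43) where the T cell list was higher (9.84 against 9.09).

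**Figure D5:**
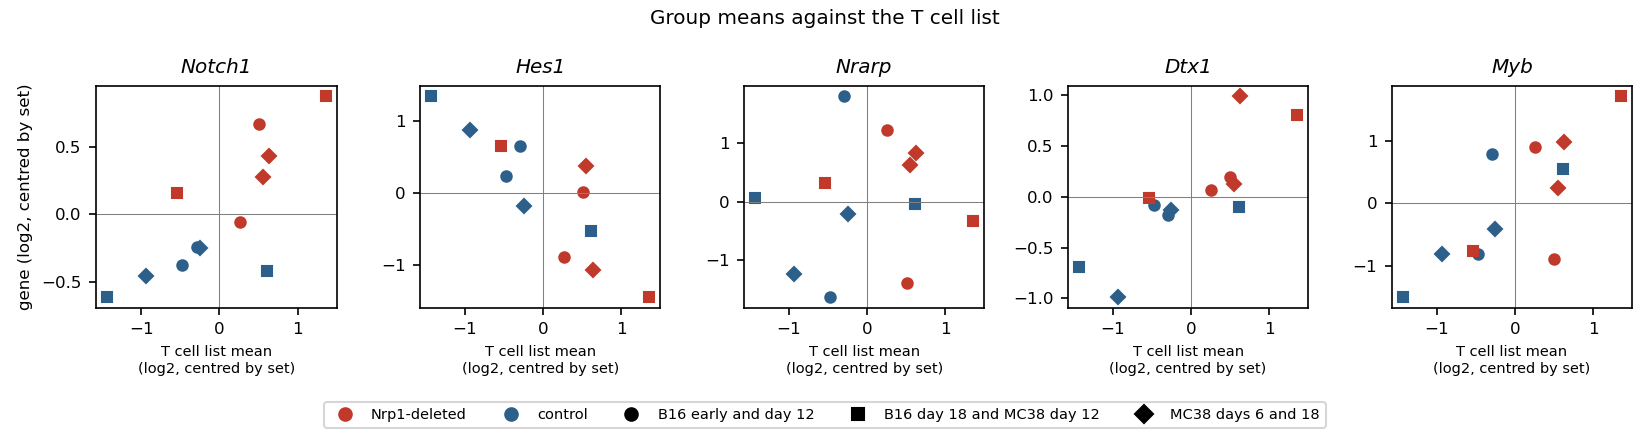
Group means of 5 members against the mean of 13 T cell markers, both log2 and centred within each set of arrays, with 12 groups per panel (red deleted, blue control; shapes are the 3 sets). Notch1, Dtx1 and Myb slope upward and Hes1 downward, with correlations of 0.77, 0.83, 0.79 and -0.86, while Nrarp shows no clear slope at 0.13.

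By the same measure, over 10090 other genes above the median, the genes most like Nrarp were Hspa2 (0.94), Chp1 (0.94), Smad7 (0.93), Map2k3 (0.93) and Ipmk (0.92), with uncentred values of 0.90 to 0.96. Those most like Myb were Crtc2 (0.98), Cables1 (0.96), Tnfrsf9 (0.96), Tmem64 (0.95) and B230308N11Rik (0.95), of which Crtc2 fell to 0.63 uncentred. Notch1 was most like Nrf1, Zfp292, Madd, Stk10 and Clint1 (0.96 to 0.97). Dtx1 was most like Atp11b, Ahnak, Rasgrp2, Zzef1 and Ripor2 (0.95 to 0.96). Hes1 was most like Snx17, Lhpp, Tbc1d32, Mvb12b and Vkorc1 (0.94 to 0.97), and of these Snx17 fell to 0.33 uncentred. Rbpj was most like Cd200r1, Slfn1, Mx1, Cdk7 and Mitd1 (0.91 to 0.95). No list of likeness held another of the 7 members. With so many genes and 12 points, high values arise readily, and nothing is drawn from them.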

How the data were processed

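RNA of CD45+ cells sorted from tumours was measured on 28 Affymetrix arrays in 12 groups of tumour, stage and genotype. Per the labels' protocols, cells were lysed without culture and biotin-labelled cRNA was made by 2 rounds of amplification, which can distort scarce transcripts. The deposited values are log2 intensities. The submitters' processing notes name RMA and Partek 6.6 for them. The table held 45141 probe sets; 28898 name 1 gene, 551 name several and were left out, and the remaining 15692 are unnamed here. Each of 17097 genes was represented by its brightest probe set (the mean over all arrays), and 7180 had several. The root mean square difference between array quantiles was at most 0.092 within each of the 3 sets of arrays and 0.119 to 0.367 between them. The highest correlation of any 2 arrays was 0.9946, so none was taken as a duplicate.

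A limma 3.58.1 model in R 4.3.3 with a mean per group was fitted to all arrays, with an intensity trend and Benjamini-Hochberg adjustment over all genes at 0.05, 2-sided. No filter was used. All adjusted p-values in the text are from limma. SEs and 95% intervals are from the same fit. B16 days were compared for members without a test, because Nrarp and Myb were picked on them. Members, gene lists (230 genes, 206 measured), named genes (up to 4 of each list by adjusted p, and 5 genes of like pattern per member) and motifs were chosen with earlier results of these data known. On simulated data with 200 of 17097 genes changed, the average genotype effect recovered 88.1% of changes of 0.5 log2 and 100% of changes of 1, with 2.04% of calls false, and the MC38 day comparison recovered 47.8% and 91% (4.22% false). The simulation changed far fewer genes than were called in the data. It also used normal noise and gave a changed gene the same shift in every setting. These rates therefore need not hold for the data. The number of arrays limits the precision. Alternatives covered filter, probe sets, scaling, variance model, array weights, fitted groups, replicate block and each array left out.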

Additional observations from a re-analysis of the deposited data

Results flagged for a closer look

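Averaged over days, the genotype effect of Nrarp differed between the tumours: it was -0.21 ± 0.19 in B16 and 1.05 ± 0.19 in MC38 (SE). At day 12 it was 0.25 in both tumours. The test of the averaged difference gave -1.26 ± 0.26 (limma adjusted p = 0.00186). Over the alternatives that kept all arrays or dropped a setting it ranged between -1.33 and -1.03, and without any 1 array between -1.44 and -1.08, always past the threshold.

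The genotype effect of Notch1 differed between B16 stages: it was 1.05 at day 12 and 0.18 at the early stage, and the difference was 0.86 ± 0.23 (limma adjusted p = 0.0253). Its range was 0.57 to 0.87 over the alternatives and 0.76 to 0.97 without any 1 array, and the second probe set gave 0.29 ± 0.24 (adjusted p = 0.658).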

How the results depend on the processing

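Over 3954 recomputed values of the 7 members, 3869 kept direction and side of the threshold, 49 lost a call, 36 gained one and 0 called values changed sign. The averaged effects of Notch1, Hes1, Dtx1 and Myb and the MC38 effects of Notch1, Hes1, Nrarp, Dtx1 and Myb passed under every alternative run, and those lost are named beside each gene in the report. Genes called for the average genotype effect were 4931 (4036 to 5233 over alternatives, 4472 to 5041 without any 1 array), for MC38 3300 (2785 to 3871, 2641 to 3428) and for B16 minus MC38 2388 (1987 to 2884, 1882 to 2570). For B16 they were 3868 (3030 to 4054 without any 1 array) and 2285 without the B16 day 18 arrays, which leaves fewer samples. For MC38 day 18 minus day 6 they were 2196 and 1273 to 2734 without any 1 array, lowest without MC38 day 6 deleted replicate 2. Centring on the 75th percentile called 1758 higher and 1126 lower for B16 minus MC38, and loess 780 and 1407, against 1154 and 1234 as deposited; no scaling moved the median of all genes by over 0.1. With the replicate number as a block, 4560, 3499, 2785, 1987 and 2272 genes were called (average, B16, MC38, B16 minus MC38, MC38 day). Deviations of same-numbered arrays correlated between -0.405 and 0.252 over 14 pairs, 5 above 0.1. They showed no pairing common to all settings, but so few arrays cannot exclude pairing. At B16 day 18 all 3 pairs were above 0.1 (0.124 to 0.252), and there the block changed no call of a member. In settings with 2 arrays of each genotype both pairs necessarily share 1 value, which was 0.1004 at MC38 day 18. A lone array left in a group was assumed to vary like the others. A fit to the compared groups only equals the deposited one for the average and for B16 minus MC38 and was not run again, and Notch2 has no value under the filter on dim genes. Values at the median of all genes or below, as for Notch2 and for Myb in MC38 control hosts, limit what can be measured.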
